A study of Mus musculus with 12 samples.

Results

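The cytoplasmic ribosomal protein genes were taken from the gene table as the named protein-coding rows whose symbol is Rpl or Rps followed by a digit, together with *Rpsa*, *Rplp0*, *Rplp1* and *Rplp2*, with a mean log2(TPM + 1) above 1.5 over all libraries. S6 kinases (Rps6k) and rows named as pseudogenes (-ps) were left out. TPM is a transcript level per transcript length, scaled so that every library sums to 1000000. Of 48623 rows, 86 protein-coding genes met the symbol rule and 84 passed the limit, among 11204 genes tested in all. The 84 genes comprised 31 of the small (40S) subunit, 46 of the large (60S) subunit, 6 paralogs (*Rpl39l*, *Rpl22l1*, *Rpl7l1*, *Rpl36al*, *Rps27l* and *Rps27rt*) and *Rps19bp1*, which the symbol rule admits but which encodes a binding partner of Rps19 and no ribosomal protein. Just outside the limit lay *Rpl10l* at 0.00 and *Rpl3l* at 0.05, and just inside lay *Rpl39l* at 1.62, *Rpl12* at 3.36 and *Rpl5* at 3.74, all as mean log2(TPM + 1).

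The libraries were made from primary microglia of C57BL/6J mice, either wild type (WT) or homozygous for a *Trem2* R47H point mutation knocked into the endogenous gene (KI). *Trem2* encodes a lipid-sensing receptor of microglia. Each culture was left untreated or received 20 ng/ml interleukin-4 (IL-4), a cytokine that moves microglia towards an alternatively activated state, for 48 h. There were 3 libraries in each of the 4 groups (WT untreated, WT IL-4, KI untreated and KI IL-4), named here by the number in their titles. The WT cultures are T13, T33 and T43. Those of the KI mice are T15, T22 and T32. Each number has an untreated and an IL-4 library, and libraries that share a number are taken here as 1 culture, which the labels do not state. Per the study's methods, KI and WT pups were littermates, and pups of the KI line were cultured one by one and genotyped afterwards. The cells came from the cortex and hippocampus of newborns, grew as mixed glia and were isolated by removing the astrocyte layer with mild trypsin, so other glia may remain. The KI allele is carried through development, and in this mouse line it is known to lower *Trem2* mRNA through altered splicing.

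All 18 microglial marker genes fixed for the check were detected, and their summed TPM lay between 15471 and 49176 in every library. *Trem2* stood at 1190 to 1886 TPM in the WT libraries and at 325 to 770 TPM in the KI libraries (averaged log2 difference -1.43 ± 0.19 SE, limma F-test, adjusted p = 0.00763). The summed TPM of 11 astrocyte markers set T15 apart: it was 4803 untreated and 3674 after IL-4, against 167 to 693 in the 10 other libraries. T15 also had the highest sums of oligodendrocyte lineage markers, 547 and 377 TPM against 69.5 to 151 TPM in WT, and the highest shares of mitochondrial transcripts, 4.43% and 3.64% of TPM against 2.57% to 3.27% in WT. Mural cell and fibroblast markers summed to 704 to 1327 TPM in the KI libraries and 142 to 617 TPM in WT. The 6 endothelial markers summed to 19.4 to 29.1 TPM untreated and 61.0 to 142 TPM after IL-4, where *Flt1* was called higher (1.96 ± 0.20 SE, limma F-test, adjusted p = 0.00056), while *Cldn5* and *Tek* were at 0 in all 12 libraries. The 6 neuronal markers summed to 26.3 and 31.8 TPM in T15 and to at most 12.1 TPM elsewhere, with *Syt1* and *Slc17a7* at 0 throughout. TPM values keep no read depth, so counting error is unknown, and in bulk RNA fewer cells of a type and less RNA per cell cannot be told apart.

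Ribosomal proteins assemble with ribosomal RNA into the small subunit, which decodes mRNA, and the large subunit, which joins amino acids. Most are present once per ribosome, and their mRNAs are among the most abundant of any growing cell. Many of these mRNAs begin with a run of pyrimidines, the terminal oligopyrimidine (TOP) tract, through which mTOR and the RNA-binding protein Larp1 control their translation. Their genes are also known for a large number of processed pseudogenes, copies made from mature mRNA and inserted elsewhere in the genome.

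Those copies set how the values of these genes can be read, and the sequences show why. The coding sequence of each of the 84 genes was aligned to every annotated transcript of the table. A row outside the 84 genes was taken as near-identical where at least 90% of the coding sequence aligned at 95% identity or more. There were 514 such rows, 498 of them processed pseudogenes, and 77 of the 84 genes had at least 1. Only 40 of these rows passed the expression limit, and they belonged to 34 genes. In the study *Rps28*, a small subunit gene on chromosome 17 (GRCm38, 33819027 to 33824562, minus strand), was the reference gene of the RT-qPCR assays. Its coding sequence of 207 bases is shown with the binding sites of both primers in capitals:

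*Rps28* coding sequence: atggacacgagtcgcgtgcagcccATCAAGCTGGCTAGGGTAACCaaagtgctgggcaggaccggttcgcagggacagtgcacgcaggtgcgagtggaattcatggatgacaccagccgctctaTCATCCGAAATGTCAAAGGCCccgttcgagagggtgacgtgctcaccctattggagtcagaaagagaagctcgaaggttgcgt

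The transcript of *Gm10443*, a processed pseudogene on chromosome 6 (86334031 to 86334240), holds all 207 bases without a difference. Both primers matched 6 rows of the table, *Rps28* included, with a product of 121 bases in each. Of the 5 others only *Gm10443* carried an appreciable level, with a mean of 281 TPM beside 321 TPM for *Rps28*, and the remaining 4 were below 1 TPM. Per the study's methods, RNA was treated with DNase and controls without reverse transcriptase were run. The study reports similar profiles when *Arf1* and *H3f3b* were used along with *Rps28*, and reference genes that were stable between genotypes. Which of these rows the assays amplified was not tested here.

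Other copies differ by a single base. In the stretches of *Rpl37*, a zinc-binding 60S protein, and of its copy *Rpl37rt*, the differing base is in capitals. The substitution was G249A, counted from the first base of the start codon:

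*Rpl37*: cgtgagggaacaacGccgaaacccaagag
*Rpl37rt*: cgtgagggaacaacAccgaaacccaagag

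*Rpl37* itself had a mean of 110 TPM, and *Rpl37rt* had 388 TPM. The coding sequences of *Rps27* and its paralog *Rps27rt* were identical, so reads from within them cannot be told apart. Since both are among the 84 genes, neither was counted as a copy of the other here or added to it. For the gene rows and these copies, how much of a copy's TPM came from the ribosomal protein mRNA was not tested.

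Levels differed widely between genes when the rows were read alone and much less when near-identical rows were added. Among the 77 subunit genes the mean TPM over 12 libraries was lowest, at 10.5, for *Rpl12*, a stalk-base protein of the 60S subunit, and it was 1153 for *Rpl41*, the smallest ribosomal protein. After addition it ran from 129 for *Rpl22*, an RNA-binding 60S protein, to 1629 for *Rps29*, a range of 12.6-fold. The SD of the mean log2 level over these genes fell from 1.23 to 0.77, and the number under 100 TPM went from 7 to 0. Near-identical rows held 21.3% to 24.1% of the summed TPM in every library. Of the 84 genes, 19 held under 50% of the summed TPM of their own and near-identical rows, and 50 held over 99%, *Rps27* and *Rps27rt* among them only because their match to each other was not counted.

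*Rpl5*, which carries 5S ribosomal RNA into the large subunit, showed the widest gap. Its own row averaged 14.6 TPM, and with *Gm15500* (chromosome 7, 114705217 to 114706235), whose transcript holds all 891 of its coding bases, and 3 further copies it reached 266 TPM, 18.2 times as much. For *Rpl12* the addition was 16.2-fold, from 10.5 to 170 TPM, and its own row ran from 2.21 to 17.8 TPM over the libraries. *Rpl13* moved from place 37 to place 3 in the order of levels, because *Gm12918* held 906 TPM beside its own 316 TPM. *Rpl41*, *Rps19* (a 40S head protein) and *Rps25* (a 40S protein used in internal initiation) were among the 5 highest rows and moved by at most 2 places.

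**Figure D1:**
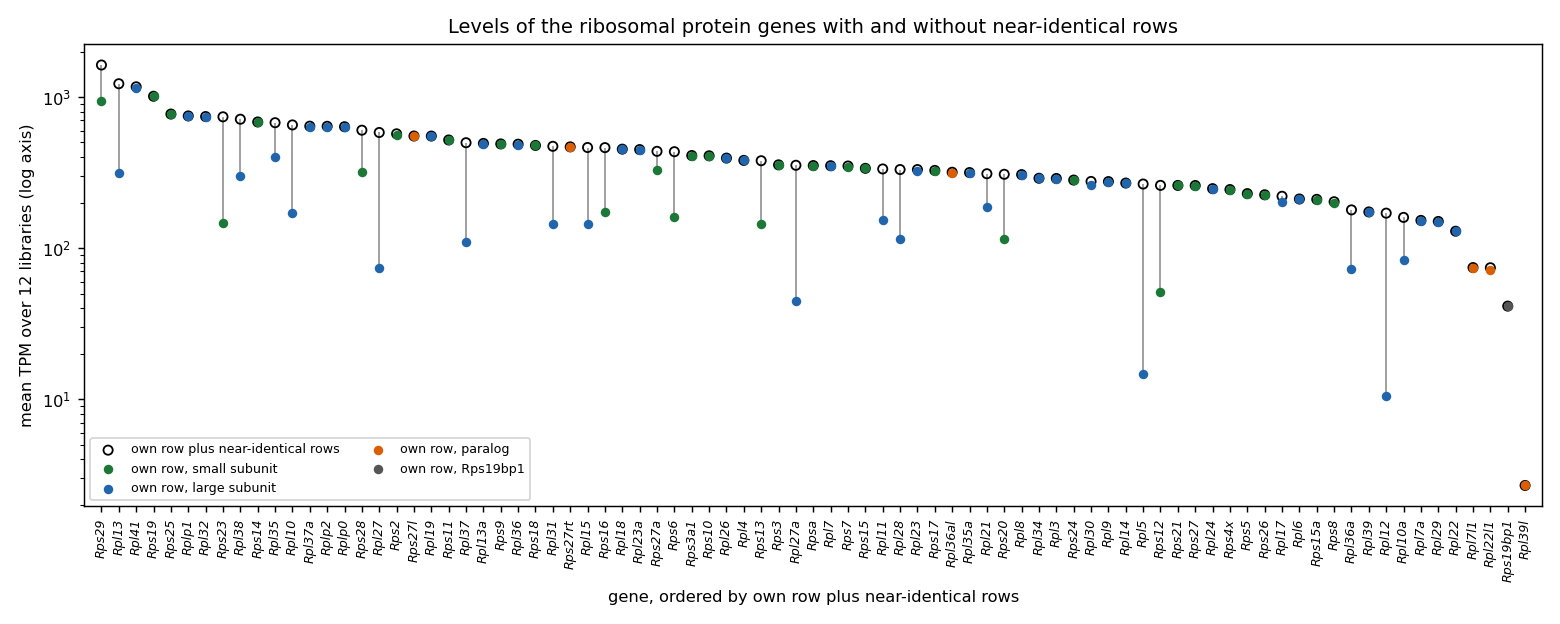
Mean TPM over 12 libraries (log axis) of each gene shown, as its own row (filled, coloured by subunit) and after near-identical rows were added (open), ordered by the sum. The longest lines belong to *Rpl5* (14.6 and 266 TPM) and *Rpl12* (10.5 and 170 TPM), while most genes show no visible shift.

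The 5 lowest rows were *Rpl39l*, *Rpl12*, *Rpl5*, *Rps19bp1* and *Rpl27a*. *Rpl39l*, a paralog of *Rpl39* known from testis, was at 4.44, 0.00 and 0.61 TPM in WT untreated, 5.11, 4.72 and 3.48 in WT IL-4, 0.00, 2.47 and 3.87 in KI untreated and 1.51, 5.01 and 0.97 in KI IL-4 (T13, T33, T43 and T15, T22, T32 in order, as throughout). *Rps19bp1* lay between 27.4 and 55.1 TPM, and its mean was below that of every subunit gene but *Rpl12* and *Rpl5*. *Rpl27a*, a 60S protein, averaged 44.6 TPM as its own row and 353 TPM with near-identical rows added. *Rpl7l1*, whose protein acts in assembly of the large subunit, lay between 56.4 and 89.4 TPM, and *Rpl22l1* between 27.4 and 114. The paralogs *Rps27l* (430 to 710 TPM) and *Rpl36al* (207 to 405 TPM) lay among the subunit genes.

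The annotated start sites of these genes were searched for a TOP-like tract in the RefSeq promoter table (GRCm38.p6). The motif was a C followed by at least 4 pyrimidines, beginning within 5 bases of the start on the gene's strand. Of the 64 genes matched in the table, 30 held such a tract at 1 or more annotated starts (46.9%), against 24.1% of 8510 tested genes and 21.2% of all 27025 genes in the table. The stretches below run from 15 bases before the annotated start to 15 bases from it onwards, with the tract in capitals. They are shown for *Rpl34* and *Rps18*, low in KI, *Rps26*, higher with IL-4 in all 6 cultures, *Rps6*, the S6 kinase substrate, and *Rps27* beside its paralogs:

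*Rpl34* (chr3:130730323-130730352, minus strand): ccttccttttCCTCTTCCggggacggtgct
*Rps18* (chr17:33955651-33955680, minus strand): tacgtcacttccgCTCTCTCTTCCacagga
*Rps26* (chr10:128626492-128626521, minus strand): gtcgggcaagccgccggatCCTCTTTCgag
*Rps6* (chr4:86857353-86857382, minus strand): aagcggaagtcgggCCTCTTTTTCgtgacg
*Rps27* (chr3:90213634-90213663, minus strand): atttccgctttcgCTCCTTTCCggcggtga
*Rps27rt* (chr9:114982725-114982754, minus strand): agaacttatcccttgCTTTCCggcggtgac
*Rps27l* (chr9:66946071-66946100, plus strand): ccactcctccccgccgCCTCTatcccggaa

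In *Rpl34* the run of pyrimidines goes on before the capitals to the edge of the stretch, and another annotated start of this gene also held a tract. *Rpl23* and *Rps25* had no such tract at their single annotated start, and nor did *Rps28*, *Rpl5* or *Rpl10*. The letters describe annotated starts, which were not measured here. No match says only that these letters are not in this window.

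Genotype was the first comparison. The 84 genes together held 29207, 28135 and 29077 TPM in WT untreated and 22638, 28765 and 25543 TPM in KI untreated. After IL-4 they held 32295, 30981 and 31725 TPM in WT and 22600, 32127 and 25382 TPM in KI. The 3 WT libraries of a treatment lay close together, T15 and T32 lay below all of them in both treatments, and T22 lay within the WT range untreated and after IL-4. The ratio of KI to WT means was 0.89 untreated and 0.843 after IL-4. Without T22 these ratios were 0.836 and 0.758, and without T15 they were 0.943 and 0.908. In both subunits T15 was lowest and T22 highest of the KI libraries in each treatment.

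**Figure D2:**
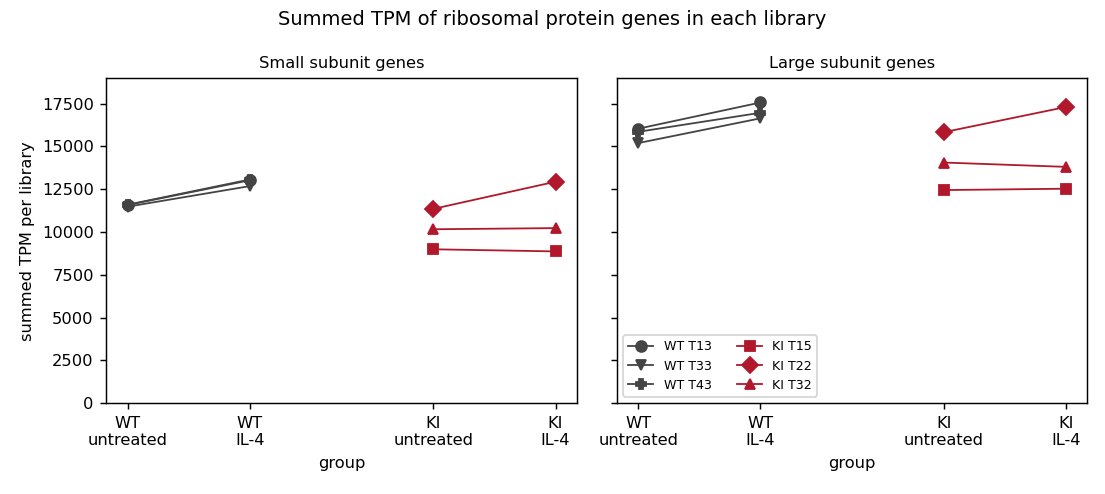
Summed TPM of the 31 small subunit genes (left) and the 46 large subunit genes (right) in each library, with lines joining the untreated and the IL-4 library that share a number. WT libraries (grey) lie close together and higher with IL-4, T22 lies near WT, and T15 and T32 lie lower and nearly level.

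Most of these genes were lower in KI, by small amounts, and no single one passed the main test. The averaged log2 difference (KI minus WT, mean over untreated and IL-4) was below 0 for 75 of 84 genes, with a median of -0.20 and a range from -0.58 to 0.87. Over all 11204 genes tested 4130 were below 0 and the median was 0.13, and 81 of the 84 genes lay below that median. By subunit, 29 of 31 small subunit genes (median -0.21), 41 of 46 large subunit genes (median -0.16) and 5 of 6 paralogs (median -0.18) were below 0. In limma's F-test of genotype, adjusted over all genes tested, 0 of 84 were called in either direction, against 0.357% of all genes called lower and 1.29% called higher. At an unadjusted p under 0.05 the test gave 12 of the 84 lower and 1 higher, against 3.8% and 12.3% of all genes.

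A test of the averaged coefficient alone, in place of the F-test of 2 coefficients, called 3 of the 84 lower and 0 higher, against 1.19% of all genes called lower and 3.95% called higher. They were *Rpl23* and *Rpl34* of the large subunit and *Rps25* of the small subunit. This fit counts the untreated and the IL-4 library of a number as independent. With the number as a block only the F-test was read, and it called none of the 84 for genotype. *Rpl23*, a protein of the 60S face towards the small subunit, had 316, 395 and 365 TPM in WT untreated, 390, 408 and 394 in WT IL-4, 207, 319 and 244 in KI untreated and 254, 342 and 228 in KI IL-4. The groups overlapped untreated, through T22, and not after IL-4. The difference was -0.53 ± 0.13 SE, with limma adjusted p = 0.116 in the F-test and 0.0386 for the averaged coefficient. *Rpl34* had 332, 308 and 315 TPM in WT untreated, 329, 338 and 347 in WT IL-4, 182, 218 and 239 in KI untreated and 276, 333 and 253 in KI IL-4. All KI untreated libraries lay below all WT untreated ones, and after IL-4 T22 lay within the WT range. Its difference was -0.41 ± 0.11 SE, with limma adjusted p = 0.0922, the lowest of the 84 in the F-test, and 0.0404 for the averaged coefficient. *Rps25* had 960, 855 and 814 TPM in WT untreated, 1008, 782 and 910 in WT IL-4, 502, 643 and 559 in KI untreated and 577, 906 and 728 in KI IL-4. Untreated groups did not overlap, and after IL-4 only T15 and T32 lay below the WT libraries. Its difference was -0.47 ± 0.13 SE, with limma adjusted p = 0.119 in the F-test and 0.0482 for the averaged coefficient.

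The other genes with the lowest differences were *Rpl10*, *Rps29* and *Rps27*, none of them called. *Rps29* had 1096, 1176 and 985 TPM in WT untreated against 599, 872 and 777 in KI untreated, with no overlap, and 1292, 968 and 1005 in WT IL-4 against 697, 1042 and 737 in KI IL-4, where T22 overlapped WT (-0.48 ± 0.14 SE, limma F-test, adjusted p = 0.165). *Rps27*, a zinc finger protein of the 40S subunit, differed by -0.47 ± 0.16 SE (limma F-test, adjusted p = 0.225). Since its coding sequence equals that of *Rps27rt*, the summed TPM of both was also taken, at 833 ± 187 (SD, n = 3) in WT untreated, 821 ± 127 in WT IL-4, 614 ± 146 in KI untreated and 638 ± 195 in KI IL-4. *Rps28*, the RT-qPCR reference, had 375, 355 and 311 TPM in WT untreated, 383, 306 and 331 in WT IL-4, 236, 355 and 306 in KI untreated and 229, 370 and 296 in KI IL-4. T15 lay below all other libraries and T22 lay within the WT range in both treatments (-0.22 ± 0.14 SE, limma F-test, adjusted p = 0.667).

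At the other end lay *Rpl5*, *Rpl22l1*, *Rpl24*, *Rps2* and *Rpl27*. *Rpl22l1*, the paralog of *Rpl22*, had 53.3, 27.4 and 65.1 TPM in WT untreated, 59.4, 84.9 and 62.9 in WT IL-4, 92.9, 54.5 and 78.0 in KI untreated and 93.9, 114 and 69.0 in KI IL-4. The ranges overlapped in both treatments, and the difference was 0.54 ± 0.22 SE (limma F-test, adjusted p = 0.37). *Rpl24*, which forms a bridge between the subunits, had 237, 210 and 220 TPM in WT untreated and 263, 264 and 267 in KI untreated, with no overlap, but overlapped after IL-4 (averaged difference 0.17 ± 0.11 SE). *Rps2* of the mRNA entry channel differed by 0.09 ± 0.11 SE and *Rpl27* by 0.07 ± 0.16 SE.

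The remaining paralogs were below 0 with ranges that overlapped between genotypes in both treatments, and none was called. *Rps27l*, known as a target of p53, had 430, 574 and 552 TPM in WT untreated, 592, 648 and 641 in WT IL-4, 471, 545 and 471 in KI untreated and 461, 710 and 529 in KI IL-4 (-0.11 ± 0.12 SE). *Rpl36al* had 289, 326 and 399 TPM in WT untreated, 318, 368 and 347 in WT IL-4, 210, 297 and 289 in KI untreated and 207, 405 and 322 in KI IL-4 (-0.27 ± 0.16 SE), so that T15 lay below every other library. *Rps27rt* had 716, 388 and 493 TPM in WT untreated, 629, 434 and 516 in WT IL-4, 309, 582 and 363 in KI untreated and 302, 544 and 326 in KI IL-4 (-0.41 ± 0.20 SE). Its WT values spread from 388 to 716 TPM and took in all KI values but those of T15 and T32. *Rpl7l1* and *Rpl39l* differed by -0.11 ± 0.13 and -0.24 ± 0.54 (SE), and *Rps19bp1* by 0.04 ± 0.18 SE.

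Among the most abundant genes, *Rps19* and *Rpl41* were not called. *Rps19*, mutated in many cases of Diamond-Blackfan anaemia, had 1033, 907 and 1031 TPM in WT untreated, 1220, 1177 and 1163 in WT IL-4, 643, 1043 and 978 in KI untreated and 740, 1294 and 890 in KI IL-4 (-0.26 ± 0.15 SE). T15 and T22 were the lowest and highest of the KI libraries in each treatment, and T22 lay above the WT range in both. *Rpl41* differed by -0.08 ± 0.12 SE.

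The values of *Rpl5* and *Rpl10* depended on which rows were counted. The *Rpl5* row had 10.7, 8.17 and 8.25 TPM in WT untreated, 10.2, 7.85 and 8.62 in WT IL-4, 12.5, 32.1 and 39.8 in KI untreated and 9.76, 18.7 and 8.18 in KI IL-4, for a difference of 0.87 ± 0.31 SE (limma F-test, adjusted p = 0.194). With near-identical rows added it had 252, 246 and 234 TPM in WT untreated, 268, 285 and 296 in WT IL-4, 304, 311 and 206 in KI untreated and 275, 278 and 231 in KI IL-4. The difference was then 0.01 ± 0.12 SE, and the share held by the gene's own row ran from 2.75% to 19.3% among libraries. *Rpl10*, an X-linked 60S protein that joins late in assembly, had 209, 155 and 285 TPM in WT untreated, 168, 222 and 183 in WT IL-4, 103, 209 and 182 in KI untreated and 91.9, 136 and 116 in KI IL-4, with no overlap after IL-4 only. It differed by -0.58 ± 0.19 SE as its own row and by -0.20 ± 0.16 SE with *Rpl10-ps1*, *Rpl10-ps3* and 6 further rows added. Its own row held 43.6% of the sum in WT untreated T13 and 17.3% in KI IL-4 T32. Over the 84 genes the addition left the median difference at -0.19, with 77 genes below 0, and the highest difference at 0.44 for *Rpl22l1*.

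**Figure D3:**
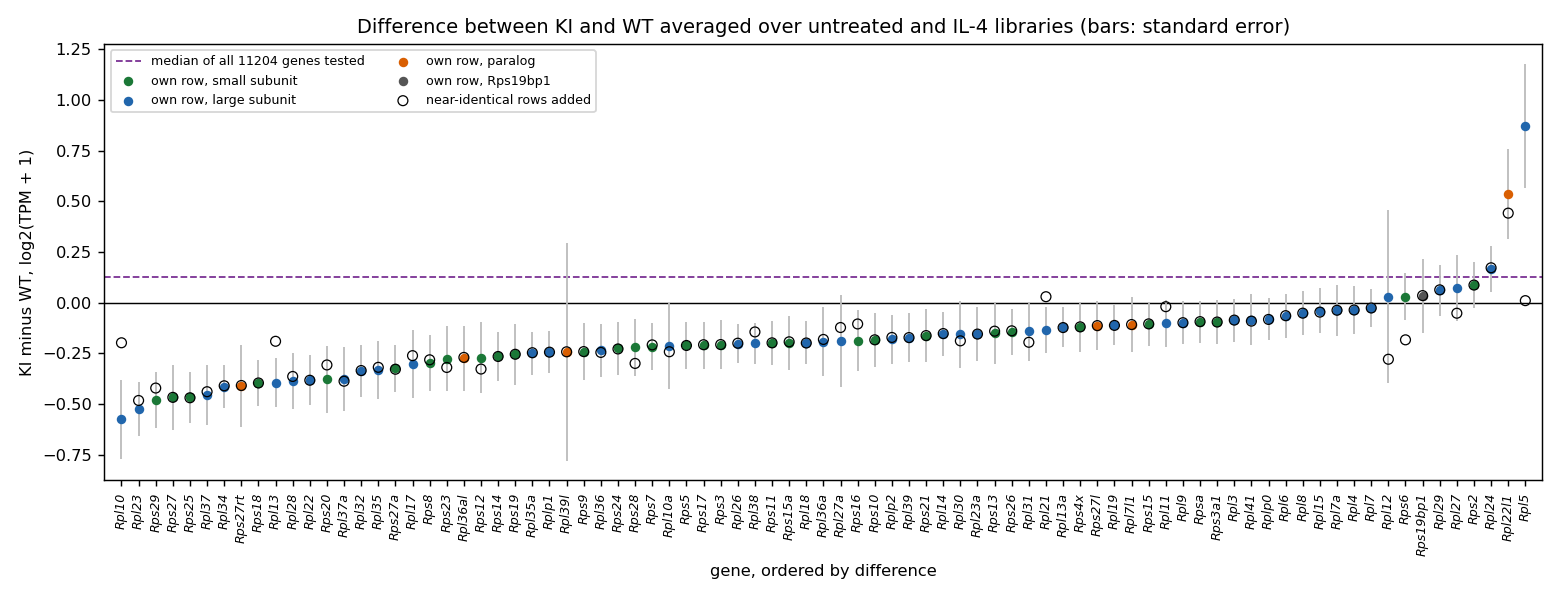
Averaged difference between KI and WT on the log2(TPM + 1) scale for each gene shown, as its own row (filled, bars are ± 1 SE) and with near-identical rows added (open), ordered by the own-row value. Nearly all points lie below the dashed median of all genes tested (0.13), and *Rpl5* goes from 0.87 to 0.01 when near-identical rows are added.

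Group ranges of the own rows gave a similar picture. Untreated, all 3 KI libraries lay below all 3 WT libraries for 9 of the 84 genes, against 4.55% of all genes tested, and above them for 3, against 13.6%. The 9 were *Rpl22*, *Rpl34*, *Rpl35a*, *Rpl37*, *Rpl38*, *Rplp1*, *Rps18*, *Rps25* and *Rps29*, and the 3 were *Rpl5*, *Rpl24* and *Rpl27*. After IL-4 the KI libraries lay below WT for 11 genes, against 5.79%, and above for 0, against 12.7%. The 11 were *Rpl7*, *Rpl10*, *Rpl13*, *Rpl18*, *Rpl22*, *Rpl23*, *Rpl26*, *Rps6*, *Rps7*, *Rps12* and *Rps18*, all named here after their values were seen. With near-identical rows added, the genotypes overlapped for *Rpl5* and *Rpl27* untreated and for *Rpl10*, *Rpl13* and *Rps12* after IL-4. The other genes of these lists stayed apart. *Rps18*, a 40S head protein, and *Rpl22* were in both lists. *Rps18* had 436, 439 and 502 TPM in WT untreated, 624, 608 and 651 in WT IL-4, 348, 406 and 412 in KI untreated and 342, 531 and 434 in KI IL-4 (-0.40 ± 0.12 SE, limma F-test, adjusted p = 0.149).

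**Figure D4:**
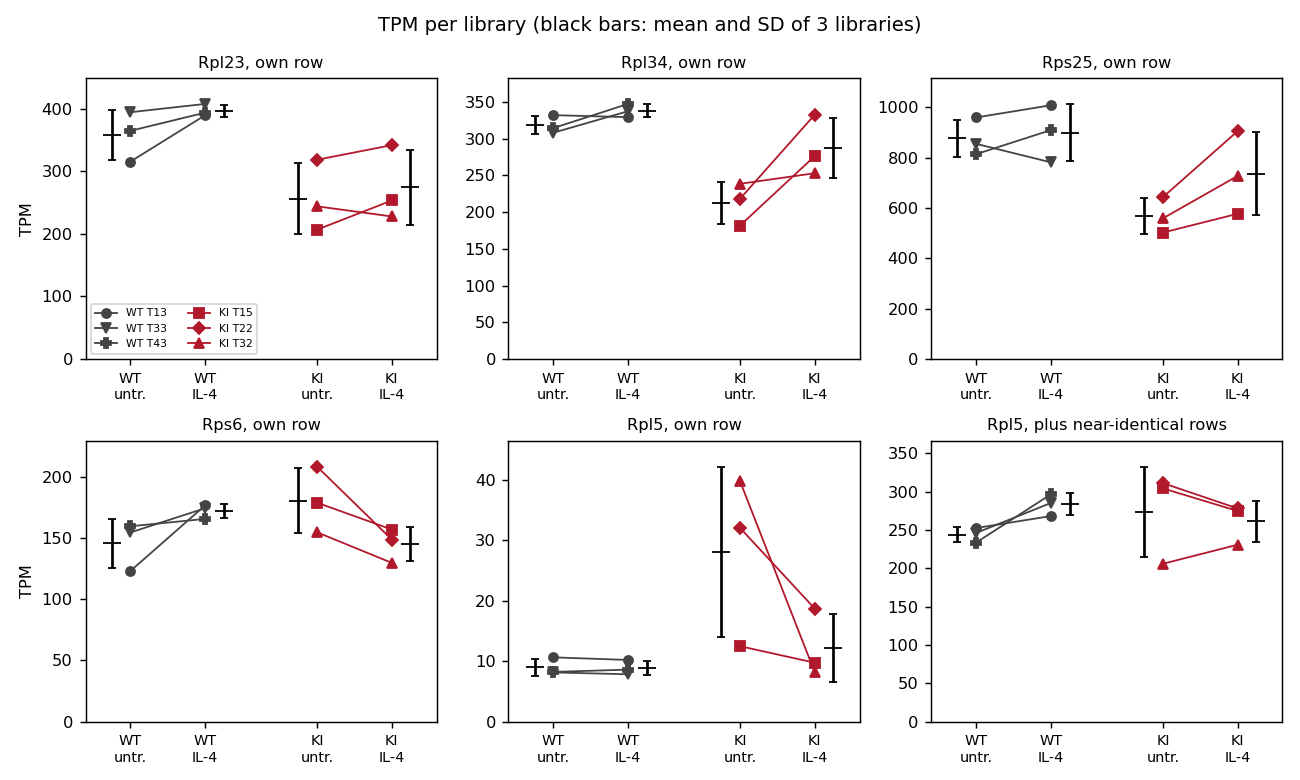
TPM in each library for *Rpl23*, *Rpl34*, *Rps25*, *Rps6* and *Rpl5*, and for *Rpl5* with near-identical rows added, with lines joining libraries that share a number and black bars for mean and SD of 3 libraries. KI values of *Rpl23*, *Rpl34* and *Rps25* lie mostly below WT, the own row of *Rps6* goes up with IL-4 in WT and down in KI (with near-identical rows added, T32 goes from 338 to 423 TPM), and the spread of the *Rpl5* row in KI untreated (12.5 to 39.8 TPM) shrinks in proportion after addition (206 to 311 TPM).

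The KI cultures differed among themselves, with the difference from WT largest in T15 and T32. Against the mean of the WT libraries of the same treatment, 71 of the 84 genes were lower in T15, 60 in T32 and 34 in T22 untreated, with median differences of -0.27, -0.13 and 0.07, where all genes tested had medians of 0.26, 0.26 and 0.12. After IL-4 the counts were 79, 79 and 39, with medians of -0.49, -0.34 and 0.01, where all genes had 0.21, 0.01 and 0.13. WT libraries set against the other 2 WT libraries of their treatment had medians between -0.02 and 0.04. The median of the 84 genes minus that of all genes was -0.53 in T15, -0.38 in T32 and -0.05 in T22 untreated and -0.70, -0.35 and -0.12 after IL-4, and it ran from -0.09 to 0.16 in the WT libraries. On this scale T22 lay within the WT spread untreated and outside it after IL-4. Astrocyte markers, whose sum was high in T15, stood in T32 at 606 TPM untreated, where WT had 693, 205 and 167 TPM, and at 645 TPM after IL-4, above the WT values of 620, 187 and 180 TPM. T22, whose ribosomal protein values lay near WT, had 221 TPM untreated and 613 TPM after IL-4. All 9 astrocyte markers tested had an averaged difference above 0 in KI (median 1.63), and none was called. Of the 18 microglial markers 17 were below 0 (median -0.64), and *Csf1r*, *Aif1*, *Itgam*, *C1qb* and *Fcrls* were called lower in KI. Of the 5 mural cell and fibroblast markers tested all were above 0 (median 0.85), and *Acta2* (2.11 ± 0.23 SE) and *Tagln* (1.93 ± 0.26 SE) were called higher. Of the 7 oligodendrocyte lineage markers tested 5 were above 0 and 2 below (median 0.27, range -1.50 to 2.69), and *Olig1* (2.69 ± 0.52 SE) was called higher. Microglial markers summed to 15471, 31360 and 25191 TPM in KI untreated (T15, T22 and T32) and to 35281 to 36376 TPM in WT untreated. After IL-4 they summed to 26361, 36000 and 35539 TPM in KI and to 40955 to 49176 TPM in WT. The part of these cell markers in the ribosomal protein values was not tested. Without T15 the median difference of the 84 genes was -0.08, and 64 genes were below 0. Without T22 it was -0.31, with 79 genes below 0, and the F-test called 2 genes, *Rpl23* and *Rpl13*. The *Rpl13* row held 25.8% of the TPM summed with its near-identical rows. Adding those rows took its difference over all libraries from -0.39 to -0.19.

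Part of the variation between libraries was common to the 84 genes. Their library mean, on the log2 scale, held 34.4% of the variance over libraries summed over the 84 genes. For all 11204 genes tested, a larger and more varied set with a median SD of 0.51 per gene against 0.24, the share held by their own library mean was 4.65%. The median coefficient of variation within a group was 9.33% in WT untreated and 7.05% in WT IL-4, and 13.9% in KI untreated and 21.4% in KI IL-4. Over all genes tested it was 28.2%, 21.1%, 35.1% and 30.5% in the same order. After the common mean was removed, the genes that varied most were *Rpl39l*, *Rpl5*, *Rpl12* and *Rpl22l1*, with residual SDs of 0.88, 0.77, 0.72 and 0.58 on the log2 scale, against a median of 0.17.

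**Figure D5:**
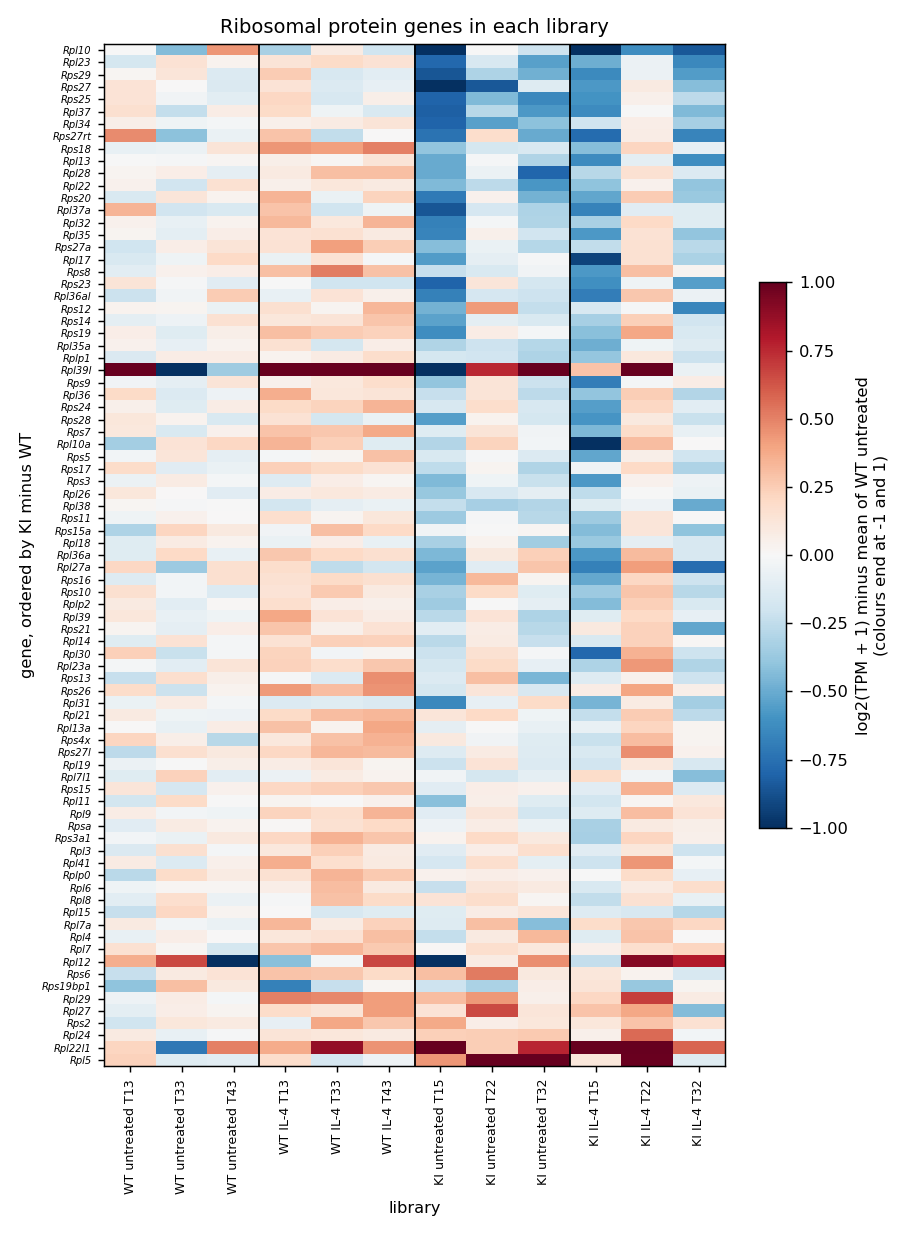
Difference of log2(TPM + 1) from the mean of the WT untreated libraries for each gene shown (rows, ordered by KI minus WT) in each library (columns), with colours ending at -1 and 1. The T15 columns are blue for most genes, T32 is blue for most genes after IL-4, and T22 resembles the WT columns.

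Ribosomal protein transcripts are short, so other short genes were read beside them. The median annotated exonic length was 1754.5 bases for the 84 genes and 4257.5 bases for the genes tested, and 70 of the 84 lay in the shortest of 3 equal length classes. The 3660 other genes of that class had a median difference of 0.13 between KI and WT, beside 0.14 in the middle and 0.13 in the longest class, while the 70 had a median of -0.20. Exonic length here joins all annotated exons of a gene, and the shortest class runs from 50 to 3105 bases. It therefore holds many genes longer than a ribosomal protein mRNA, and an effect of mRNA length was not tested.

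IL-4 was the second comparison. In the 3 WT cultures the summed TPM of the 84 genes was 10.6%, 10.1% and 9.11% higher with IL-4 than untreated. In KI it was 11.7% higher in T22, and the change was -0.168% in T15 and -0.631% in T32. The averaged log2 difference (IL-4 minus untreated) was above 0 for 64 of the 84 genes, with a median of 0.08 against 0.04 over all genes tested. Under quantile normalization that median was -0.01, so its direction depends on the scaling. In WT the median was 0.15 and in KI 0.04, against 0.08 and 0.01 over all genes tested. In T43 the median response of the 84 genes, 0.12, lay below that of all genes, 0.17. The limma F-test called 0 of 84 lower and 0 higher, against 0.143% and 0.75% of all genes, and at an unadjusted p under 0.05 it gave 0 lower and 3 higher, against 2.13% and 5.13%. The averaged coefficient also called 0 in both directions, against 0.205% and 1.14%.

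With IL-4, 45 of the 84 genes were higher in all 3 WT cultures, against 21.6% of genes tested, and 4 were lower in all 3, against 12.1%. In all 3 KI cultures 16 were higher, against 14.0% of genes tested, and 8 lower, against 12.6%. Over all 6 cultures 7 were higher, against 5.73%, and 0 lower, against 2.51%. The 7 were *Rpl13a*, *Rpl14*, *Rpl28*, *Rpl32*, *Rpl39*, *Rps26* and *Rps27a*, named after their values were seen. *Rps26*, which contacts mRNA at the exit channel, had the largest difference of these, with 230, 174 and 207 TPM in WT untreated, 273, 251 and 278 in WT IL-4, 179, 221 and 181 in KI untreated and 213, 267 and 211 in KI IL-4. WT groups did not overlap and KI groups did (0.32 ± 0.11 SE, limma F-test, adjusted p = 0.623). *Rps18* differed by 0.30 ± 0.12 SE (limma F-test, adjusted p = 0.633), and its WT groups did not overlap.

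The remaining genes with the highest IL-4 differences were low rows: *Rpl39l* (0.83 ± 0.54 SE), *Rpl12* (0.47 ± 0.43 SE) and *Rpl22l1* (0.43 ± 0.22 SE). Without T43 the difference of *Rpl12* was 0.061, and without T33 that of *Rpl22l1* was 0.17. The lowest were *Rpl5* (-0.55 ± 0.31 SE), *Rpl10* (-0.31 ± 0.19 SE), *Rpl15* (-0.15 ± 0.11 SE), *Rpl27a* (-0.15 ± 0.23 SE) and *Rps23* (-0.13 ± 0.16 SE). Each of these 5 held under 50% of the TPM of its near-identical rows and itself. With those rows added the differences of 4 of them were above 0, at 0.08 for *Rpl5*, 0.16 for *Rpl10*, 0.09 for *Rpl15* and 0.03 for *Rps23*, and *Rpl27a* stood at -0.09. The addition left 75 of the 84 genes above 0, with a median of 0.10.

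The third comparison asked whether the response to IL-4 differed between genotypes. The interaction (response in KI minus response in WT) was below 0 for 60 of the 84 genes, with a median of -0.12 against -0.07 over all genes tested. Limma called 0 of 84 genes, against 0.0% of all genes, and at an unadjusted p under 0.05 it gave 1 lower and 0 higher, against 2.14% and 1.04%. That gene was *Rps6*, whose protein is phosphorylated by S6 kinase downstream of mTOR. It had 123, 154 and 159 TPM in WT untreated, 176, 174 and 165 in WT IL-4, 179, 208 and 155 in KI untreated and 157, 149 and 130 in KI IL-4. IL-4 libraries were higher in 3 of 3 WT cultures and lower in 3 of 3 KI cultures, and the interaction was -0.56 ± 0.23 SE (limma, adjusted p = 1.00). The *Rps6* row held 28.7% to 45.7% of the TPM summed with near-identical rows. That sum was 429, 441 and 418 TPM in WT untreated, 469, 510 and 498 in WT IL-4, 392, 489 and 338 in KI untreated and 357, 450 and 423 in KI IL-4, so that T32 was higher with IL-4 and only T15 and T22 were lower. The interaction of the sum was -0.17 ± 0.22 SE. Responses up in all 3 WT and down in all 3 KI cultures were found in 3 of the 84 own rows, against 1.79% of genes tested, and the opposite in 0, against 0.937%. The other extremes were *Rpl39l* (-1.12 ± 1.07 SE), *Rpl5* (-1.06 ± 0.61 SE), *Rpl12* (0.78 ± 0.85 SE), *Rps27* (0.38 ± 0.32 SE) and *Rps19bp1* (0.37 ± 0.37 SE). With near-identical rows added the interaction was -0.26 ± 0.24 SE for *Rpl5* and -0.44 ± 0.32 SE for *Rpl12*, whose own rows hold 5.49% and 6.16% of these sums.

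Other genes of the translation machinery were read from lists. *Fau*, which encodes a 40S protein fused to a ubiquitin-like one, and *Rack1*, the 40S scaffold, lie outside the symbol rule. Their KI minus WT differences were -0.14 ± 0.11 and 0.06 ± 0.12 (SE), and neither was called. Of 14 translation factors and other classical TOP mRNAs 8 were below 0 (median -0.05), with *Eef1a1*, the elongation factor, at -0.18 ± 0.11 SE, and none was called for genotype or IL-4. Of 26 genes of ribosome biogenesis and RNA polymerase I 18 were above 0 (median 0.08), with none called. Of 12 genes that control ribosomal protein mRNAs none was called. Among them *Larp1* stood at -0.15 ± 0.21 SE and *Mtor* at -0.08 ± 0.35 SE for genotype, while *Myc* was at 10.9 to 51.5 TPM in untreated and 43.3 to 88.5 TPM in IL-4 libraries (limma F-test, adjusted p = 0.266). Mitochondrial ribosomal proteins, which serve the separate ribosomes of that organelle, lay near the median of all genes for genotype. Of these, 66 of 78 were above 0 (median 0.16, against 0.13 for all genes tested), and 1 was called higher, *Mrps6* (1.45 ± 0.29 SE, limma F-test, adjusted p = 0.0472), a share near the 1.29% of all genes called higher.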

How the data were processed

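The authors deposited 1 table of TPM per gene for 12 libraries. Per the labels, cDNA was poly(A)-primed (SMART-Seq v4), sequenced as read pairs, trimmed with Trim Galore and quantified with Salmon against GRCm38. How reads shared by near-identical transcripts were split follows from that quantification. Values were analysed as log2(TPM + 1) with limma 3.58.1 in R 4.3.3 over the 11204 genes with a mean above 1.5, in a linear model of genotype, treatment and the product term, all 12 libraries sharing 1 estimate of the spread, and Benjamini-Hochberg adjustment over all of these genes at 0.05. Genotype and IL-4 were each tested by an F-test of 2 coefficients that includes the interaction. The study's methods name a likelihood-ratio test without giving its terms, so these terms were chosen here, and the averaged coefficient alone is the alternative. A fold change on this scale understates changes of low genes. The code was tested on simulated data. Gene positions and coding sequences came from GENCODE vM21 (GRCm38), near-identical rows were found with BLAST 2.17.0, and promoter sequences are from RefSeq. Primer sequences came from the study's primer list.

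The genes and lists were chosen with earlier results of these data known, and counts over them carry no test. Named genes are those past the threshold, those with the 5 lowest and 5 highest differences for genotype and for IL-4, 3 at each end for the interaction, the 5 highest and lowest levels, the paralogs, *Rps28* and *Rps19bp1*. Any other gene, *Rpl34*, *Rpl13* and those of the related lists among them, was chosen after its values were seen. Nothing in the sources used here states that same-numbered libraries come from the same animal, so p-values measure the spread between these libraries. Some genes and sequences are not reported here, and 1 gene is not drawn in the plots.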

Additional observations from a re-analysis of the deposited data

Results flagged for a closer look

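*Rps6* was singled out because the response of its own row to IL-4 went up in all 3 WT cultures and down in all 3 KI cultures. The responses on the log2 scale were 0.52, 0.17 and 0.05 in T13, T33 and T43 and -0.19, -0.48 and -0.25 in T15, T22 and T32. The interaction was -0.56 ± 0.23 SE, and it did not pass the test (limma, adjusted p = 1.00). With near-identical rows added the pattern was lost: the responses were 0.13, 0.21 and 0.25 in WT and -0.13, -0.12 and 0.32 in KI, and the interaction was -0.17 ± 0.22 SE. The own rows of *Rpl13* and *Rpl8*, found after their values were seen, had responses of opposite sign in the same way, with interactions of -0.24 ± 0.24 SE and -0.32 ± 0.21 SE. With near-identical rows added *Rpl13* was lower in only 1 of 3 KI cultures, while *Rpl8* has no such rows. Over all genes tested 1.79% showed this pattern of signs. The groups hold 3 libraries each, too few for a test of single outlying libraries.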

How the results depend on the processing

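Of the 84 genes, the F-test of genotype called 0. Median-ratio scaling called 1 (*Rpl34*, lower), the averaged coefficient 3, and leaving out each culture in turn 0 to 2, with 2 only without T22. No alternative called any for IL-4 or the interaction. The median genotype difference stayed below 0 in every alternative, although centring each library on the median of the 84 genes, which removes their common level by construction, brought it to -0.011. It ran from -0.31 to -0.08 when each culture was left out. The all-gene median moved from 0.13 to 0.02 under median-ratio scaling and -0.06 under quantile normalization, where the median of the 84 genes minus it was -0.33 and -0.17. The median IL-4 difference was -0.013 under quantile normalization. The IL-4 over untreated ratio of summed TPM in WT, near 1.1, was 1.06 after median-ratio scaling and 1.11 as a share of nuclear protein-coding TPM.

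Adding near-identical rows, an alternative chosen after seeing the data, turned the IL-4 differences of *Rpl10* (0.16), *Rpl15* (0.092), *Rpl5* (0.083) and *Rps23* (0.028), the interaction of *Rpl12* (-0.44) and the genotype difference of *Rpl27* (-0.052). Adding only rows named as pseudogenes gave 0.16 for *Rpl10*, 0.13 for *Rpl15*, 0.028 for *Rps23* and -0.036 for *Rpl27*. The genotype difference of *Rpl27* was -0.076 under quantile normalization and -0.047 under median-ratio scaling, and that of *Rps2* was -0.033 under the latter. Leaving out cultures gave ranges of -0.093 to 0.25 for *Rpl27*, -0.032 to 0.16 for *Rps2* and, for IL-4, -0.34 to 0.054 for *Rpl27a*. The cause was not tested. For 415 of 434 values of single genes the direction and the side of the threshold were those reported.

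A fit with the culture number as a replicate block called 0 of the 84 genes for genotype (lowest limma adjusted p = 0.138), IL-4 (0.147) or the interaction (0.969). Libraries that share a number correlated between 0.08 and 0.38 in their deviations from group means, not all over 0.1, so the number was not used as a pairing, although 5 of 6 correlated best with their own number. Over all genes, the 40 lower and 145 higher genotype calls became 21 and 56 with the block, 7 and 9 without the expression filter, 2 and 24 without the variance trend, and 1 and 2 without T33. TPM keeps no depth, so how far depth limits these values is unknown.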
